A study of Mus musculus with 10 samples.

Results

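Amacrine cells are the inhibitory interneurons of the inner retina, and the 9 genes described here make, load or retrieve their transmitters. They were taken by symbol from the deposited count table of 36115 genes: Gad1, Gad2, Slc6a9 and Slc32a1 for GABA and glycine, Chat, Slc5a7 and Slc18a3 for acetylcholine, and Th and Ddc for dopamine. All 9 were present under a single identifier each, and all 9 were among the 18965 genes that passed the low-count filter. The table holds retinal RNA sequencing counts of untreated mice aged 3 months on a C57BL/6 background, 5 libraries of wild type (W1 to W5) and 5 of the interleukin-6 knockout line B6.129S2-Il6tm1Kopf/J (K1 to K5). In that line the allele is present in every cell, and the labels give no sex, litter or batch. Whether each library is a separate animal is not stated, so the p-values refer to variation among libraries, which may be technical in part. The label of K5 gives a different second sequencing index from that of the other 9 libraries.

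GABA is made from glutamate by 2 decarboxylases, the products of Gad1 and Gad2, and GABA and glycine share a vesicle transporter, the product of Slc32a1. Glycinergic amacrine cells hold glycine with the membrane transporter encoded by Slc6a9. Starburst amacrine cells, which compute the direction of motion, release acetylcholine as well as GABA, and a small population of wide-field amacrine cells releases dopamine, the retina's signal of light adaptation. Horizontal cells of the mouse also use Slc32a1, so in whole retina this gene is not a measure of amacrine cells alone. In bulk tissue, fewer cells of a type and less RNA per cell cannot be told apart.

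Library totals ran from 30433373 to 38857374 counts. Levels are CPM, the reads of a gene relative to its library's total after TMM scaling, and differences are log2 fold changes of the libraries labelled knockout over wild type from edgeR's quasi-likelihood test, called at a Benjamini-Hochberg adjusted p under 0.05 over all genes tested. For Il6 itself, W1 to W5 gave 0, 0, 1, 1 and 1 reads while K1 to K5 gave 3, 3, 5, 7 and 4 reads, which goes against the labels. Gene-level counts do not show which part of Il6 the reads come from, so directions below are those of the libraries as labelled. The summed level of 18 amacrine identity genes ran from 1570 to 1691 CPM in wild type and from 1428 to 1734 CPM in libraries labelled knockout. Abundant genes carry much of this sum, with Pax6 at 327, Calb2 at 250 and Prox1 at 216 CPM on average. Whether the sum is particular to amacrine cells was not tested. Lens markers were at 0.557 to 1.17 CPM in sum, while markers of retinal pigment epithelium varied between libraries from 22.1 CPM in W5 to 311 CPM in W2.

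None of the 9 transmitter genes was called different between the groups, against 2.03% of all tested genes (385 of 18965), and at an unadjusted edgeR p under 0.05 stood 1 gene, Gad2, where 13.8% of all tested genes did (2620 of 18965). In no gene did the groups part completely, against 3.48% of tested genes. Log2 fold changes ran from -0.23 (Gad2) to 0.09 (Slc32a1). They were negative in 6 of the 9 genes and had a median of -0.09, against 49.6% negative and a median of 0.0018 over all tested genes. DESeq2 and limma-voom called 0 of the 9 as well. In the authors' deposited table the lowest adjusted p of the 9 was that of Gad2, 0.133, with a deposited log2 fold change of -0.216, and no gene carried the mark of significance.

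**Figure D1:**
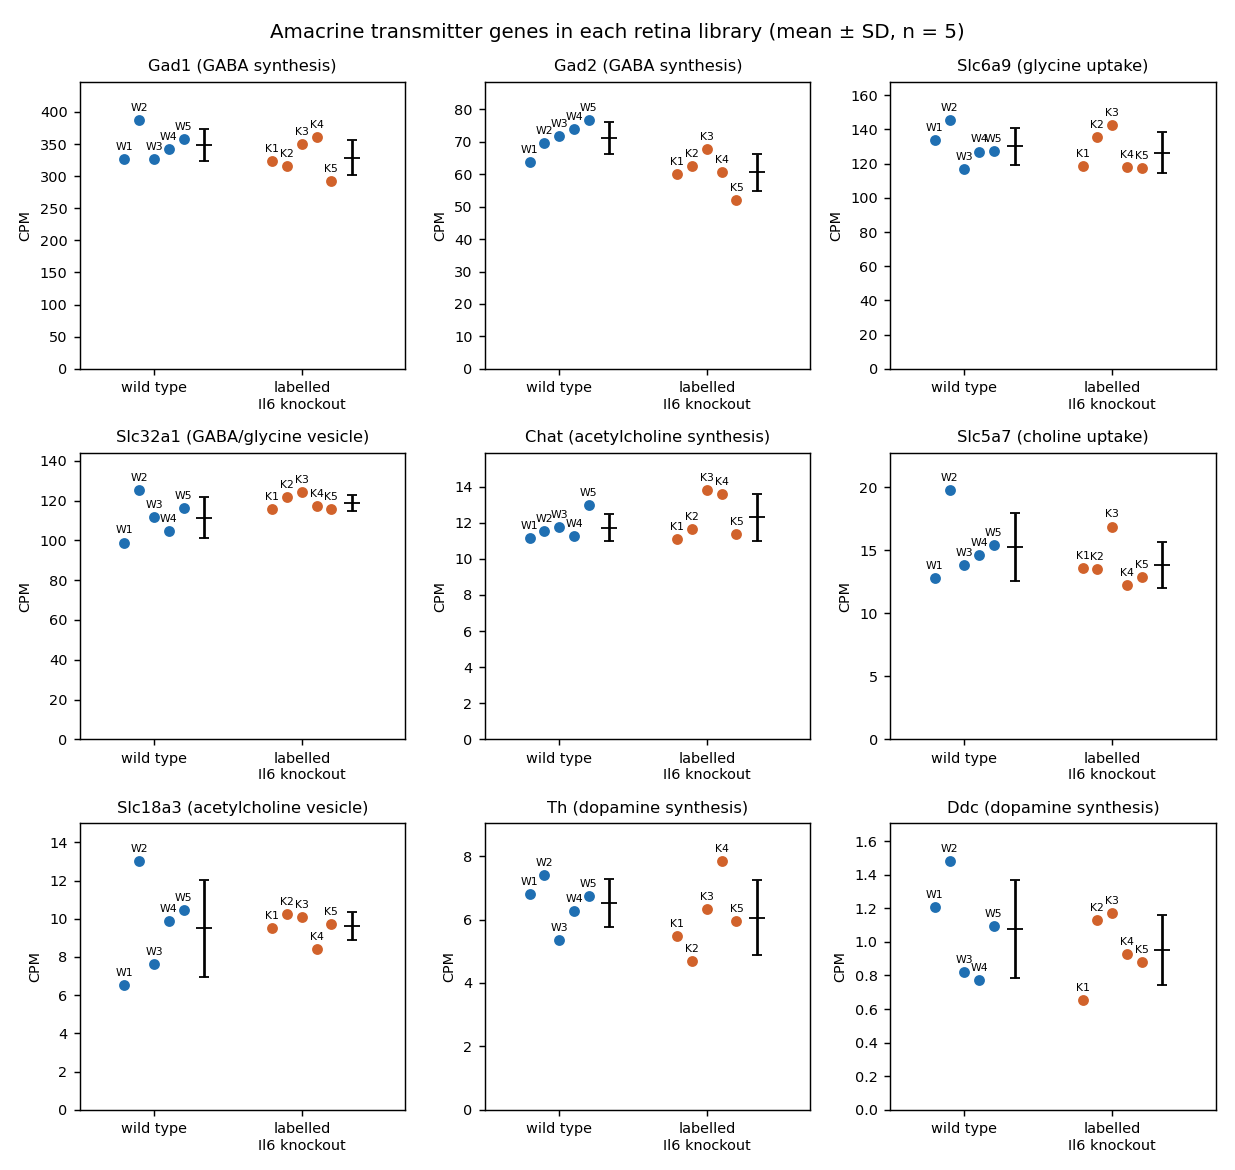
CPM (y axis, from 0) of each transmitter gene in the 5 wild-type libraries (blue) and the 5 libraries labelled Il6 knockout (orange), with mean ± SD beside the points. Gad2 shows the clearest offset, with 71.2 against 60.6 CPM on average and W1 at 63.9 CPM below K3 at 67.7 CPM.

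Gad2 (chromosome 2, 22622205 to 22693874, GRCm38) encodes the decarboxylase that is mostly held at nerve terminals, and had the lowest p of the set. It stood at 63.9, 69.6, 71.8, 73.9 and 76.8 CPM in W1 to W5 and at 60.0, 62.6, 67.7, 60.7 and 52.1 CPM in K1 to K5. All 5 libraries labelled knockout lay below the wild-type mean and 4 of them below the lowest wild-type library, W1, while K3 lay above W1. The means were 71.2 ± 4.89 and 60.6 ± 5.64 CPM (SD, n = 5), a log2 fold change of -0.23 ± 0.08 (SE). The 95% interval was -0.39 to -0.07, or 0.761 to 0.952 as a fold. The unadjusted edgeR p was 0.00773, which ranked 938 of 18965, and the edgeR adjusted p was 0.156, so Gad2 did not pass the test. Over 18 alternative settings its log2 fold change ranged from -0.28 (without K3) to -0.15 (without W5 and K5 together). The adjusted p over these settings ran from 0.0991 to 0.523. The setting without W5 and K5 was added after the data were seen. It takes out the highest wild-type and the lowest labelled-knockout value of Gad2, so it must bring the means closer.

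Gad1 (chromosome 2, 70553072 to 70602014) encodes the decarboxylase that makes most of the GABA of the cell body. It had 327, 388, 327, 342 and 358 CPM in W1 to W5 and 323, 316, 350, 361 and 292 CPM in K1 to K5. W2 was highest, 3 libraries labelled knockout lay below every wild-type library, and K3 and K4 lay among wild type. With means of 348 ± 25.5 and 328 ± 27.2 CPM (SD, n = 5), the log2 fold change was -0.09 ± 0.08 (SE), with a 95% interval of -0.25 to 0.08 and an edgeR adjusted p of 0.690. The interval in fold terms was 0.841 to 1.06. The log2 fold change was -0.045 without W2, -0.047 without K5 and -0.037 without both W5 and K5.

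Slc32a1 (chromosome 2, 158610767 to 158615748), which loads GABA and glycine into synaptic vesicles, had a log2 fold change of the opposite sign. It stood at 98.9, 125, 112, 105 and 116 CPM in W1 to W5 and at 116, 122, 124, 117 and 116 CPM in K1 to K5. All libraries labelled knockout lay above the wild-type mean but none above W2. The means were 111 ± 10.2 and 119 ± 4.07 CPM (SD, n = 5), and the log2 fold change of 0.09 ± 0.07 (SE) had a 95% interval of -0.05 to 0.24 and an edgeR adjusted p of 0.604. It was 0.05 without W1 and 0.14 without W2. The spread within wild type was 9.15% of the mean against 3.42% in the libraries labelled knockout. Counting error alone is about 1.601% and 1.55%. Summed markers of horizontal cells, which also use Slc32a1, stood at 368 ± 10.1 and 379 ± 27.4 CPM (SD, n = 5). Their part in the level of Slc32a1 was not tested.

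Slc6a9 (chromosome 4, 117834506 to 117875198) takes glycine back into glycinergic amacrine cells. It had 134, 146, 117, 127 and 127 CPM in W1 to W5 and 118, 136, 143, 118 and 117 CPM in K1 to K5. W2 and K3 were high and W3 was lowest, with the groups fully interleaved. The means were 130 ± 10.7 and 126 ± 11.9 CPM (SD, n = 5), with a log2 fold change of -0.04 ± 0.08 (SE), a 95% interval of -0.21 to 0.13 and an edgeR adjusted p of 0.868. The sign turned to 0.0012 without W2. Slc6a9 shares 1429 of its 5141 exon bases (27.8%) with Ccdc24 on the opposite strand, which stood at 49.9 ± 8.71 and 55.6 ± 11.5 CPM. On that strand the GENCODE M21 annotation also gives 511 shared bases (9.94%) with Gm17114 and 46 (0.895%) with B4galt2. The strand setting of the counting is not given, so part of the level of each of these genes may belong to another.

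Within a library, the ratio of 2 genes does not depend on scaling, and the GABA genes were compared in this way. Gad2 relative to Slc32a1 stood at 0.646, 0.556, 0.643, 0.705 and 0.660 in W1 to W5 and at 0.519, 0.513, 0.544, 0.519 and 0.451 in K1 to K5. Every library labelled knockout lay below every wild-type library, though K3 and W2 were close. The means were 0.642 ± 0.0543 and 0.509 ± 0.0349 (SD, n = 5), a log2 difference of -0.33 with an exact two-sided permutation p of 0.00794, the smallest that 252 splits allow. Benjamini-Hochberg adjustment over the 8 ratios compared gave 0.0635, which does not pass 0.05. That is also the smallest adjusted value that 1 ratio alone could reach. The 8 ratios were chosen after the values had been seen. Gad2 and Slc32a1 had the lowest and the highest log2 fold change of the set. The p-values of the ratios are therefore not those of comparisons fixed in advance and are given as a description.

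Gad1 relative to Slc32a1 was 3.13 ± 0.153 in wild type and 2.76 ± 0.217 in libraries labelled knockout (SD, n = 5), with 4 of 5 labelled-knockout libraries below all of wild type (exact permutation p = 0.0238, adjusted 0.0952). Gad2 relative to Gad1 was 0.205 ± 0.0172 and 0.185 ± 0.0119, with overlapping groups (exact permutation p = 0.0714, adjusted 0.165). Slc6a9 relative to Slc32a1 was 1.17 ± 0.120 and 1.06 ± 0.0637 (exact permutation p = 0.0952, adjusted 0.165). The ratios to Slc32a1 share a denominator and are not independent of each other.

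**Figure D2:**
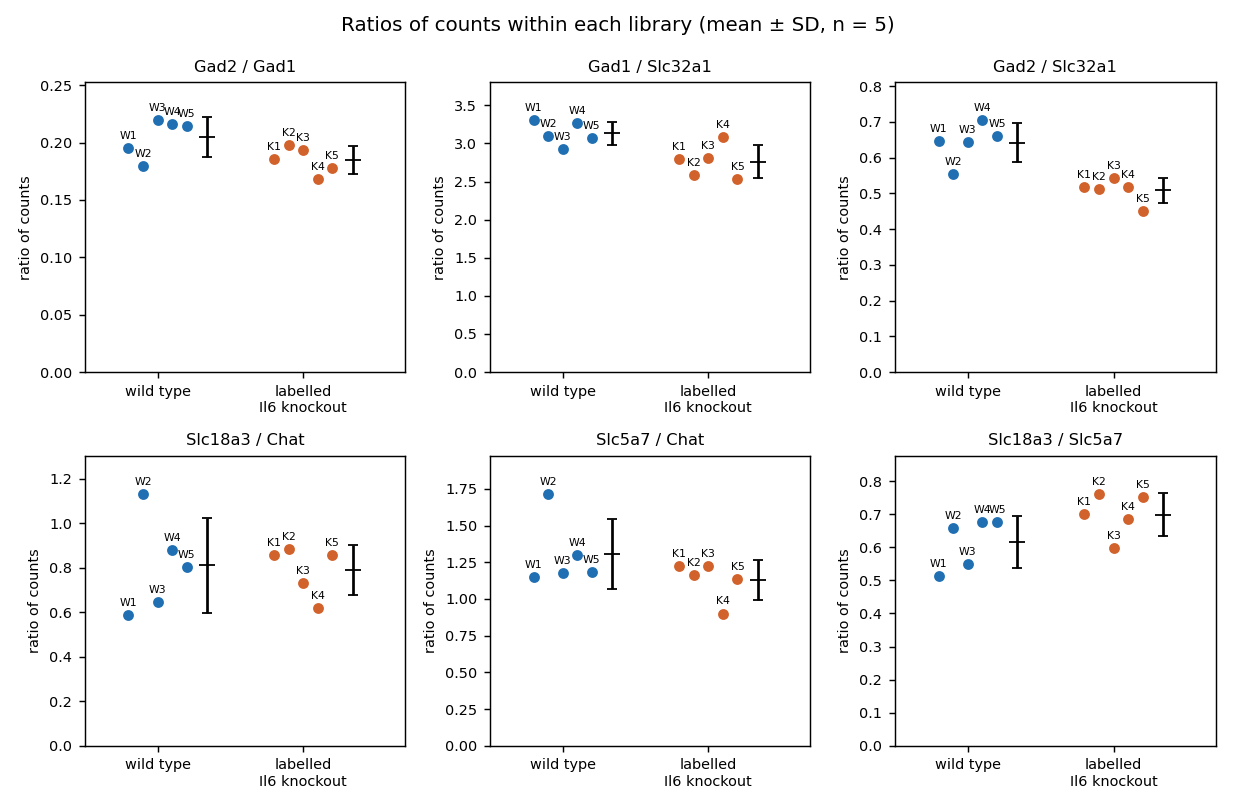
Ratio of counts of 2 genes within each library (y axis, from 0) for the GABA genes (top) and the acetylcholine genes (bottom), in wild type (blue) and libraries labelled Il6 knockout (orange), with mean ± SD. The Gad2/Slc32a1 points of the groups do not overlap (0.556 to 0.705 against 0.451 to 0.544), while the Slc18a3/Chat points do. The pairs were chosen after the values had been seen.

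The cholinergic genes mark starburst amacrine cells. Chat and Slc18a3, the transferase that makes acetylcholine and the transporter that loads it into vesicles, form a nested locus on chromosome 14 (GRCm38), with Slc18a3 at 32462438 to 32464850 inside the Chat span of 32408203 to 32465909 on the same strand. The GENCODE M21 annotation, in which Chat does not have the deposited coordinates, gives them 0 shared exon bases. No 100-base window of the annotated transcripts occurs in both, so their annotated exon sequences differ. Reads of unspliced Chat RNA over Slc18a3 could not be told from its own, and their share was not tested. Slc18a3 is a single exon of 2413 bases within an intron of Chat.

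Chat stood at 11.1, 11.5, 11.8, 11.3 and 12.997 CPM in W1 to W5 and at 11.1, 11.6, 13.8, 13.6 and 11.4 CPM in K1 to K5. K3 and K4 lay above every wild-type library, K1 lay just below W1, the lowest of wild type, and the other libraries lay among them. The means were 11.7 ± 0.744 and 12.3 ± 1.30 CPM (SD, n = 5), a log2 fold change of 0.07 ± 0.10 (SE) with a 95% interval of -0.14 to 0.28 and an edgeR adjusted p of 0.821. The log2 fold change was 0.023 without K3 and 0.029 without K4, and stood at 0.11 without W5, 0.10 without K1 and 0.13 without both W5 and K5. The spread of Chat within wild type, 6.34% of the mean, was close to the 4.93% that counting error alone gives. In libraries labelled knockout it was larger, 10.6% against 4.81% from counting error.

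Slc18a3 stood at 6.56, 13.04, 7.61, 9.89 and 10.5 CPM in W1 to W5 and at 9.53, 10.3, 10.1, 8.40 and 9.71 CPM in K1 to K5. The wild-type libraries held both the lowest value (W1) and the highest (W2), 1.99-fold apart, with all libraries labelled knockout between them. The means, 9.51 ± 2.54 and 9.60 ± 0.732 CPM (SD, n = 5), gave a log2 fold change of 0.01 ± 0.16 (SE), with a 95% interval of -0.32 to 0.35 and an edgeR adjusted p of 0.983. Spread came to 26.7% of the mean in wild type and 7.63% in libraries labelled knockout, where counting error alone is about 5.48% and 5.44%.

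Slc5a7 (chromosome 17, 54273594 to 54299034) encodes the high-affinity choline transporter that supplies Chat. It had 12.8, 19.8, 13.8, 14.6 and 15.4 CPM in W1 to W5 and 13.6, 13.5, 16.9, 12.3 and 12.9 CPM in K1 to K5. W2 was highest and K4 lowest, and the remaining libraries lay within 12.8 to 16.9 CPM. The means were 15.3 ± 2.69 and 13.8 ± 1.79 CPM (SD, n = 5), with a log2 fold change of -0.14 ± 0.12 (SE), a 95% interval of -0.40 to 0.12 and an edgeR adjusted p of 0.667. The log2 fold change was -0.03 without W2 and -0.23 without K3.

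In each of the 3 ratios among the cholinergic genes the groups overlapped. Their p-values are given as a description, because the pairs were chosen after the values had been seen. After adjustment over the 8 ratios, 0.0635 is the smallest exact permutation p that any ratio alone could reach. The adjusted values therefore do not decide whether these ratios differ. Slc18a3 relative to Chat was 0.810 ± 0.214 in wild type and 0.789 ± 0.113 in libraries labelled knockout (SD, n = 5; exact permutation p = 0.976, adjusted 0.976). Slc5a7 relative to Chat was 1.31 ± 0.236 and 1.13 ± 0.134 (exact permutation p = 0.206, adjusted 0.275). Slc18a3 relative to Slc5a7 was 0.615 ± 0.0783 and 0.699 ± 0.0661, with 4 labelled-knockout libraries above all of wild type (exact permutation p = 0.103, adjusted 0.165). Over the 10 libraries the log2 CPM of Slc18a3 had a Pearson correlation of 0.73 with Slc5a7 and of 0.09 with Chat. Its highest correlation within the transmitter set was with Slc32a1, 0.74, and Slc5a7 had 0.72 with Slc6a9. A value near 0.73 is thus not particular to cholinergic pairs. These correlations describe libraries that share their depth and handling.

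Th (chromosome 7, 142892752 to 142931128), tyrosine hydroxylase, catalyses the rate-limiting step of dopamine synthesis, and its transcription responds to cAMP. The start region of Th is shown because it holds the palindromic cAMP response element, TGACGTCA, in capitals, whose first base lies 45 bases before the annotated start. RefSeq places this window on GRCm38.p6 at chr7:142899946-142900245, minus strand, inside the deposited span of Th, and it is written 5′ to 3′.
Th: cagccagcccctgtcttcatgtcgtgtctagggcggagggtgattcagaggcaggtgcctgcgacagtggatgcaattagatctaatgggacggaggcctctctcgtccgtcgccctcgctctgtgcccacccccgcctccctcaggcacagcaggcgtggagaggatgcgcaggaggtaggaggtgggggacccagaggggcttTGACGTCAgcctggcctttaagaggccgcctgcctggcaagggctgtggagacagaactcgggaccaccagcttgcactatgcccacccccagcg
Of 32817 such windows of 300 bases in RefSeq, 588 (1.79%) hold the same 8 letters on either strand. None of the annotated start windows of the other 8 genes holds them.

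Th stood at 6.81, 7.42, 5.37, 6.27 and 6.75 CPM in W1 to W5 and at 5.47, 4.69, 6.32, 7.86 and 5.96 CPM in K1 to K5. The libraries labelled knockout held the lowest value (K2) and the highest (K4). The means were 6.52 ± 0.765 and 6.06 ± 1.18 CPM (SD, n = 5), a log2 fold change of -0.11 ± 0.15 (SE) with a 95% interval of -0.42 to 0.21 and an edgeR adjusted p of 0.814. In fold terms the interval runs from 0.748 to 1.154. The log2 fold change was -0.03 without K2 and -0.06 without W2, against -0.17 without W3 and -0.22 without K4.

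Ddc (chromosome 11, 11814101 to 11898144), the decarboxylase that turns L-DOPA into dopamine and 5-hydroxytryptophan into serotonin, was the scarcest of the set, with 24 to 48 counts per library. It stood at 1.21, 1.48, 0.819, 0.774 and 1.10 CPM in W1 to W5 and at 0.654, 1.13, 1.17, 0.930 and 0.881 CPM in K1 to K5. The groups overlapped, with W2 highest and K1 lowest. The means, 1.08 ± 0.292 and 0.952 ± 0.208 CPM (SD, n = 5), gave a log2 fold change of -0.17 ± 0.25 (SE), an interval of -0.69 to 0.35 and an edgeR adjusted p of 0.825. Counting error alone accounts for a spread of about 16.4% of the mean in wild type, where 27.1% was seen. The interval in fold terms was 0.619 to 1.28. The log2 fold change was -0.03 without W2 and -0.06 without K1, against -0.27 without W4, -0.25 without W3 and -0.25 without K3. Ddc relative to Th was 0.163 ± 0.0285 and 0.162 ± 0.0517 (exact permutation p = 0.825, adjusted 0.943).

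**Figure D3:**
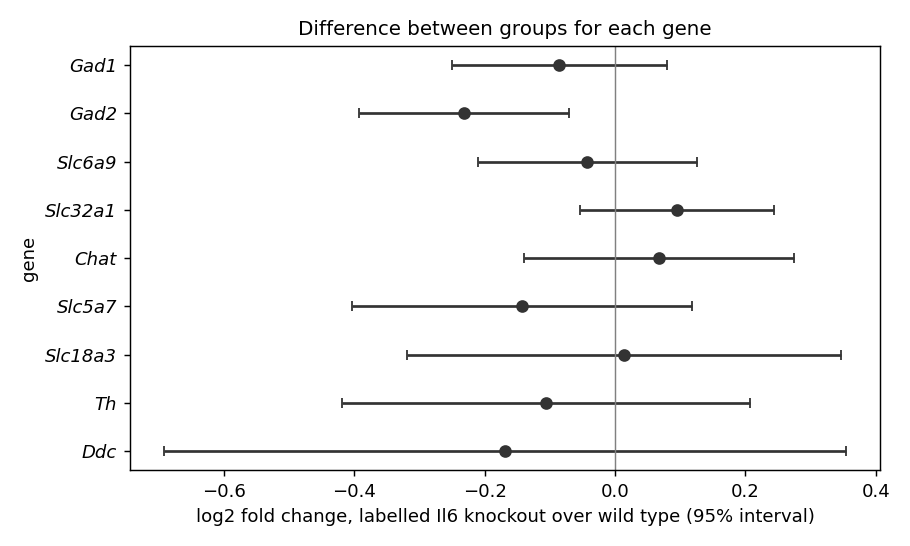
Log2 fold change of each gene (x axis; libraries labelled Il6 knockout over wild type, n = 5 each) with its unadjusted 95% interval. The interval of Gad2 lies below 0 (-0.39 to -0.07), the other 8 include 0, and that of Ddc is the widest (-0.69 to 0.35).

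The levels of the genes spanned a wide range when set against exon length, taken as all annotated exons of a gene together. Over the 10 libraries Gad1 averaged 44.3 CPM per kb of exon, Slc32a1 41.2, Slc6a9 24.95 and Gad2 11.2. Slc18a3 followed at 3.96 CPM per kb, then Th at 2.66, Slc5a7 at 2.58 and Chat at 2.56, with Ddc last at 0.227. Gad1 thus lay at the 95.4 percentile of tested genes and Ddc at the 7.85 percentile.

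Some neighbours in this order did not differ beyond their spread. Gad1 exceeded Slc32a1 in 8 of 10 libraries, with a mean ratio of 1.08. Th exceeded Slc5a7 in 5 of 10 libraries and Slc5a7 exceeded Chat in 4 of 10. Slc18a3 exceeded Th in 9 of 10 libraries, and each other gene exceeded the next in all 10. Exon lengths come from the GENCODE M21 annotation of GRCm38. They join the exons of all annotated transcripts of a gene and are not the length of the transcript in use. The order and the percentiles therefore depend on the annotation. Reads over exon bases shared with genes on the other strand may also be missing or misplaced. These bases are 24.9% of Slc32a1 (with Gm14205) and 27.8% of Slc6a9 (with Ccdc24). In the GENCODE M21 annotation 7 of the 9 genes have the deposited coordinates and Chat and Slc5a7 do not.

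**Figure D4:**
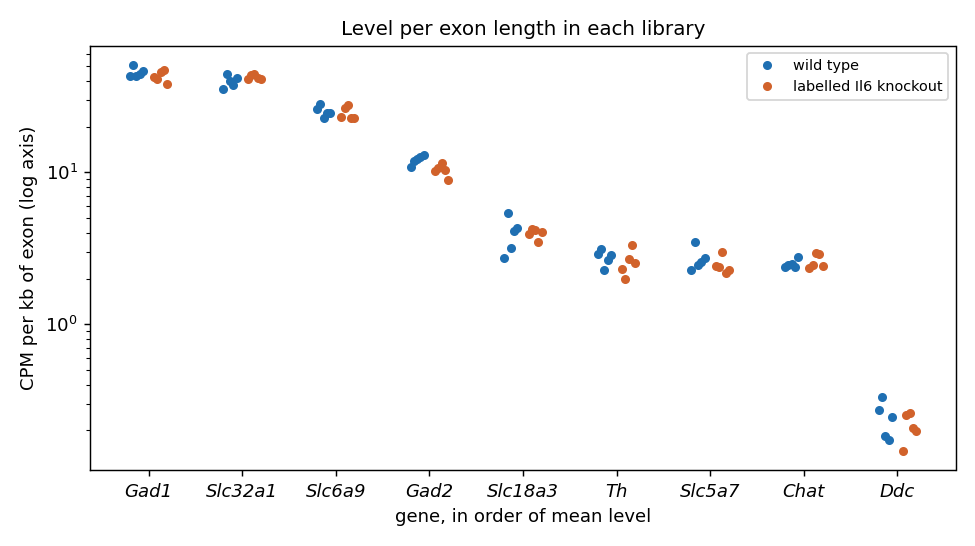
Level of each gene in CPM per kb of all its annotated exons together (y axis, logarithmic) in the 10 libraries, in order of the mean. The vesicle transporter Slc32a1 (41.2 on average) sits beside Gad1 (44.3), and Th, Slc5a7 and Chat (2.56 to 2.66) cannot be ordered.

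Library W2 held the highest value of all 10 libraries in 6 of the 9 genes (Gad1, Slc6a9, Slc32a1, Slc5a7, Slc18a3 and Ddc), and W1 was the lowest wild-type library in 6. Among libraries labelled knockout, K3 was highest in 6 of 9. W2 was also highest in the summed level of Muller glia markers, 7708.5 CPM against 5604 to 6884 CPM in the other 9 libraries, and of pigment epithelium markers, 311 CPM against 22.1 to 239 CPM. The same held for microglia markers (33.5 against 17.5 to 29.3 CPM) and endothelial and pericyte markers (469 against 329 to 417 CPM). Lens markers were also highest in W2 (1.17 against 0.557 to 0.793 CPM). Sums of rod, cone, bipolar, horizontal and ganglion cell markers were highest in other libraries. The part of these levels in the transmitter genes' values was not tested. In W2 the sum of amacrine identity genes was the lowest of wild type, 1570 CPM. Its sums of starburst and dopaminergic identity genes (219 CPM) and of amacrine neuropeptides (88.3 CPM) were the highest of wild type. GABA uptake and breakdown (1117 CPM) and dopamine receptors (340 CPM) were highest of all 10 libraries in W2. Acetylcholine breakdown and choline supply was lowest there (299 CPM). The pooled within-group SD of log2 CPM of Slc32a1, 0.0994, lay at the 11.9 percentile of tested genes, that of Gad1 at the 18.2 percentile and that of Gad2 at the 22.4 percentile, while those of Slc18a3 and Ddc lay at the 65.9 and 73.1 percentiles.

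For each gene, the gene with the most similar pattern over the 10 libraries was found by Pearson correlation of log2 CPM with the other 18964 tested genes. These were Kcnab1 for Gad1 (0.95), Gm16054 for Gad2 (0.96), Slit2 for Slc6a9 (0.96), Hopx for Slc32a1 (0.96) and Stxbp6 for Chat (0.95). For the rest they were Antxr1 for Slc5a7 (0.95), C1ql1 for Slc18a3 (0.94), Atp5s for Th (0.91) and Paqr9 for Ddc (0.92). Each is the highest of 18964 values over 10 libraries that include both groups, and is given as a description. No transmitter gene was the closest partner of another. The closest pair among them, Slc6a9 and Ddc, had a correlation of 0.83.

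The genes around the transmitter set were read from lists for each pathway, and the share called over all tested genes was 2.03%. In GABA uptake and breakdown, 0 of 6 genes were called, with log2 fold changes from -0.11 to 0.45 and a median of -0.04. In glycine transport and breakdown, 0 of 7 were called (median -8.5e-05), with Dld, a shared subunit of the glycine cleavage system, at 122 ± 9.02 and 125 ± 9.18 CPM (0.03, edgeR adjusted p = 0.887). Slc6a5, the transporter of glycinergic neurons elsewhere in the nervous system, stood at 31.4 ± 3.53 and 30.3 ± 2.82 CPM with an edgeR adjusted p of 0.861.

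Among genes of acetylcholine breakdown and choline supply, 0 of 6 tested were called (median -0.08), and the choline transporter gene Slc44a1 stood at 115 ± 6.96 and 110 ± 8.98 CPM (SD, n = 5). Ache, which degrades acetylcholine, stood at 99.7 ± 10.3 and 89.3 ± 6.28 CPM, with a change of -0.16 on the log2 scale (edgeR adjusted p = 0.391). Of 11 acetylcholine receptor genes, 0 were called and 9 had a negative log2 fold change (median -0.09), against 2.03% and 49.6% of all tested genes. The signs were not tested as a set. Chrna6, a nicotinic subunit and the most abundant of them, stood at 111 ± 12.2 and 98.4 ± 9.72 CPM (-0.17, edgeR adjusted p = 0.423). At an unadjusted edgeR p under 0.05, which 13.8% of all tested genes reached, stood 1 of the 11, Chrna7, at 9.11 ± 1.12 and 7.32 ± 1.22 CPM (log2 fold change -0.31, edgeR adjusted p = 0.304).

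Of the genes for the dopamine cofactor, transport and breakdown, 0 of 9 tested were called (median -0.06). Qdpr, which regenerates the tetrahydrobiopterin that Th needs, stood at 62.6 ± 8.24 and 60.2 ± 5.43 CPM (SD, n = 5; edgeR adjusted p = 0.838). Slc18a2, the vesicular monoamine transporter, had the lowest p of the list, with 14.5 ± 2.09 and 11.3 ± 1.78 CPM, a change of -0.36 on the log2 scale (edgeR adjusted p = 0.211). The plasma membrane dopamine transporter gene Slc6a3 had 26 counts in wild type and 19 in libraries labelled knockout and was below the filter. Dopamine receptors had 0 of 4 called, with Drd4, the receptor of photoreceptors, at 203 ± 27.8 and 198 ± 14.1 CPM (-0.04, edgeR adjusted p = 0.901). Genes for other products of Th and Ddc were scarce and 0 of 4 tested were called, with Tph2, which starts serotonin synthesis in neurons, at 5.56 ± 1.48 and 6.10 ± 0.702 CPM. Dbh, which makes noradrenaline from dopamine, had 30 and 40 counts in sum over the groups.

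Amacrine identity genes gave no call among 17 tested (median log2 fold change 0.03). Pax6 stood at 347 ± 50.8 and 306 ± 42.1 CPM (SD, n = 5; -0.18, edgeR adjusted p = 0.503), and Tfap2b, a transcription factor of amacrine cells, at 210 ± 8.86 and 215.8 ± 20.001 CPM (0.04, edgeR adjusted p = 0.855). The lowest p was that of Tfap2c, at 19.0 ± 2.27 and 15.3 ± 1.77 CPM (log2 fold change -0.31, edgeR adjusted p = 0.166). Genes of starburst and dopaminergic amacrine cells gave 0 of 6 called (median 0.04). Isl1, which starburst and ON bipolar cells share, stood at 74.0 ± 5.72 and 77.6 ± 10.7 CPM, and Megf10, a starburst surface protein, at 42.6 ± 3.92 and 45.8 ± 4.24 CPM, with edgeR adjusted p of 0.797 and 0.616. Nr4a2, a transcription factor linked to Th in dopamine neurons, stood at 11.6 ± 1.19 and 9.84 ± 1.82 CPM (-0.24, edgeR adjusted p = 0.451).

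Calls in amacrine genes came from neuropeptides, where 1 of 7 tested was called higher and 1 lower, set against 0.859% and 1.17% of all tested genes. Crh, corticotropin-releasing hormone, rose from 0.805 ± 0.238 to 1.86 ± 0.370 CPM (SD, n = 5), a log2 fold change of 1.21 ± 0.23 (SE) with an edgeR adjusted p of 0.0123. Leaving out W5 and K5 together moved that to 0.0528. Vip, vasoactive intestinal peptide, fell by 0.35 ± 0.09 on the log2 scale (edgeR adjusted p = 0.0480). Its mean CPM was 23.3 ± 2.18 in wild type against 18.2 ± 1.41 in the labelled knockouts. The call of Vip was lost when any library was left out (adjusted p 0.0526 to 0.126), and its adjusted p was 0.0560 with limma-voom and 0.0098 with DESeq2. In both peptides the groups did not overlap, which held for 3.48% of all tested genes, and the same held for Npy, neuropeptide Y, which missed the threshold at 9.03 ± 0.889 and 12.1 ± 1.65 CPM (log2 fold change 0.42, edgeR adjusted p = 0.0769). Of the 7 peptides, 5 had an unadjusted edgeR p under 0.05 (13.8% of all tested genes), among them Penk (0.62) and Sst (0.82), and the median log2 fold change was 0.42. Neither peptide is a transmitter enzyme or transporter, and whether their differences from the transmitter genes are themselves beyond error was not tested.

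Light and clock responsive genes were read beside Th, because retinal dopamine follows light and time of day and the labels give no time of collection. Of 9 such genes 0 were called (2.03% of all tested genes), and 3 had an unadjusted edgeR p under 0.05 (13.8% of all tested genes), namely Per1, Dbp and Arntl. Per1, a clock repressor that cAMP induces, stood at 132 ± 12.5 and 102 ± 19.8 CPM (SD, n = 5; log2 fold change -0.36, edgeR adjusted p = 0.140). Dbp, a clock output gene, stood at 139 ± 26.4 and 108 ± 18.6 CPM (-0.36, edgeR adjusted p = 0.213). Arntl, a clock activator, had the opposite sign, at 98.0 ± 3.64 and 108.5 ± 6.68 CPM (0.15, edgeR adjusted p = 0.307). Nr1d1, the most abundant of the list, stood at 231 ± 22.0 and 221 ± 23.1 CPM, and Egr1, an immediate early gene, at 32.4 ± 22.3 and 33.6 ± 22.5 CPM. The part of collection time in the values of Th was not tested.

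**Figure D5:**
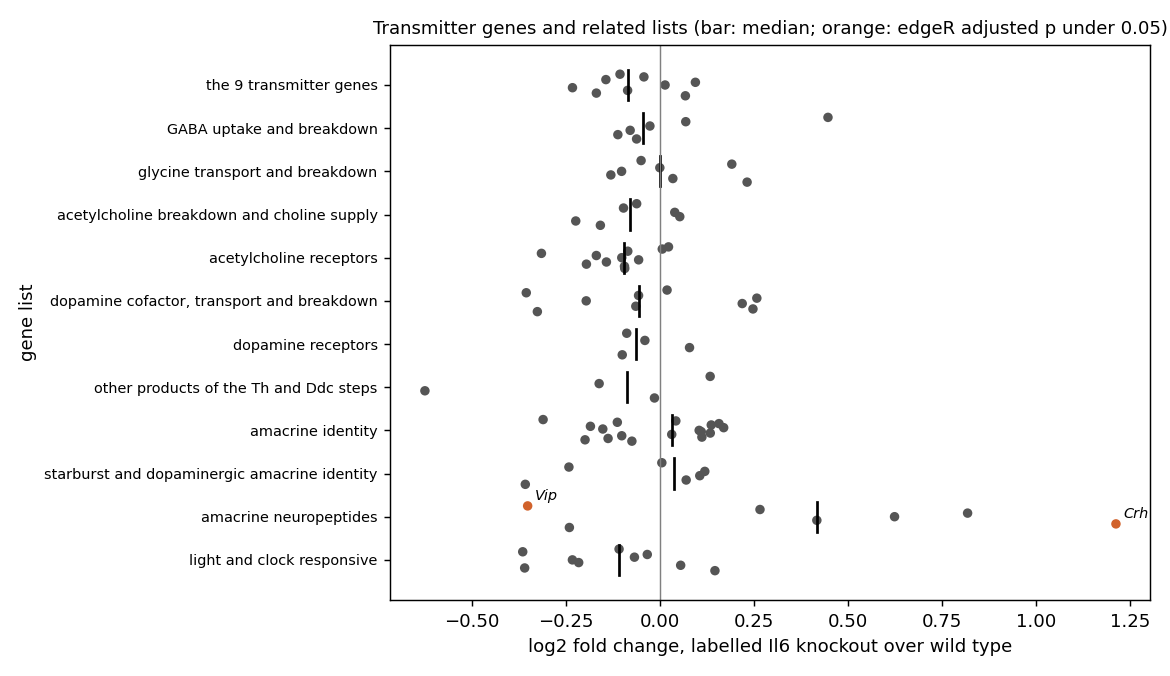
Log2 fold change (x axis) of each tested gene in the transmitter set and in the related gene lists, with the median of each list as a bar. Crh and Vip, in orange, are the 2 genes called by edgeR, and the transmitter genes lie between -0.23 and 0.09.

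Assignment of reads could touch some of the transmitter genes, among them Slc6a9 and Slc32a1, which share exon bases with other genes, and Slc18a3, which lies inside Chat. Gad1 and Gad2 share no 100-base window in their annotated transcripts. The processed pseudogene Gad1-ps shares 8 of 7726 distinct windows of Gad1 (0.104%), and it had 69 counts over the 10 libraries against 118583 for Gad1. Slc32a1 shares 697 of 2797 exon bases (24.9%) with the antisense gene Gm14205, which had 2 counts in all. How reads over both genes were assigned is not given. The low count of Gm14205 therefore does not show that Slc32a1 kept all of its reads there. Th and Slc5a7 overlap no other annotated gene.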

How the data were processed

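Retinal RNA was sequenced in 10 libraries, and the authors deposited whole-number counts of reads per gene for 36115 genes without scaling. Named in the submitters' processing notes are STAR 2.5.3a, featureCounts 1.15.2, DESeq2 1.14, bcl2fastq and FastQC, and the build GRCm38.p5. Strand and multiple-mapping settings are not given in the sources used here. A DESeq2 comparison by the authors stands in the same table, per the file headers. Its deposited log2 fold change and adjusted p-value were quoted for Gad2, and its mark of significance was read for all 9 genes. The deposited mean signal of counts divided by size factors was not used.

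Genes were filtered with filterByExpr (minimum count 10, minimum total 15), scaled with TMM and tested with edgeR 4.0.16 (quasi-likelihood, genotype only, 5 against 5 libraries) in R 4.3.3. The SE is the size of the log2 fold change over the root of F, and 95% intervals use the t quantile of the fit. Alternatives used limma 3.58.1, DESeq2 1.42.0, sva 3.50.0, other scalings and filters, and each library left out. At totals of 30433373 to 38857374 counts, the counting error of the 9 genes in wild type ran from 0.905% of the mean (Gad1) to 16.4% (Ddc). No pair of libraries was alike within sampling noise (lowest chi-square per degree of freedom 10.9).

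The genes and lists were chosen with earlier results of these data known, and the 8 within-library ratios after the values had been seen. Named were the 9 genes, every called gene and the most abundant gene of each pathway or identity list, and the closest partner of each of the 9. The most abundant gene of 1 such list is not reported here. The rule did not cover the marker lists of other cell types, and for those only summed levels are given, for some of the lists. Ache, Chrna7, Slc6a5, Slc6a3, Slc18a2, Dbh, Npy, Penk, Sst, Tfap2b, Tfap2c, Megf10, Nr4a2, Per1, Dbp, Arntl and Egr1 were named in addition, after their values were seen. Calb2 and Prox1 were also named outside the rule, as abundant genes of the amacrine identity list. Libraries were grouped by the genotype label, and W1 to W5 and K1 to K5 are names in accession order that pair nothing. Of 36115 identifiers, 36003 matched GENCODE M21 by their unversioned form, and 25 symbols turned into dates were repaired.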

Additional observations from a re-analysis of the deposited data

Results flagged for a closer look

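Of 34 groups of 5 values checked (the 9 genes and the 8 ratios, in each genotype), 2 held a library far from the other 4, where chance alone gives about 1 in 20. Both concern Slc5a7 relative to Chat. In wild type, W2 stood at 1.72 against 1.149 to 1.30 in the other 4 libraries. In libraries labelled knockout, K4 stood at 0.901 against 1.137 to 1.23. W2 had the highest Slc5a7 level of all libraries, 19.8 CPM, with Chat at 11.5 CPM, and K4 had the lowest, 12.3 CPM, with Chat at 13.6 CPM.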

How the results depend on the processing

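None of the 9 transmitter genes was called under any of the 18 alternatives. Of 162 values (9 genes, 18 alternatives), 157 kept their sign. With 1 library left out, values ran from -0.089 to 0.0012 for Slc6a9 (the highest without W2) and from -0.093 to 0.15 for Slc18a3, whose sign turned without W1 (-0.093), W3 (-0.06), K2 (-0.01) or K3 (-0.0043). The log2 difference of Gad2 relative to Slc32a1 ran from -0.38 to -0.29 with each library left out, an alternative added after the data were seen (exact permutation p 0.00794 to 0.0159). Of other named genes, Drd4 (-0.093 to 0.024) and Qdpr (-0.095 to 0.028) changed sign without W2. The count of genes called in the whole table was 704 without a low-count filter (298 higher, 406 lower), 763 with DESeq2 (319, 444) and 664 with 1 surrogate variable (306, 358). Leaving out 1 library gave 211 to 542 called genes (71 to 253 higher, 140 to 289 lower). The lowest, 211, was without K4, with 240 without K5, and 253 genes were higher without W2, against 93, 71 and 84 when K3, K4 or K5 was missing. Without W5 and K5, also added later, 107 were higher. No paired analysis was possible because the labels carry no replicate numbers. Depth limits Ddc most, at 24 to 48 counts a library.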
